A study of Mus musculus with 6 samples.

Results

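Ccl19 and Ccl21 are the ligands of the chemokine receptor Ccr7, and their levels were followed in mouse dorsal skin 24 h after UVB. All rows of the expression table whose symbol field names Ccl19, Ccl21a, Ccl21b, Ccl21c or Ccr7 were taken, which gave 10 of 35556 rows. Rows with the same value in every array were counted once, which left 6 distinct value profiles of 35080 in the table. The 10 rows are 5 of Ccl19 in 4 profiles, 4 of Ccl21 in 1 profile and 1 of Ccr7. These genes were chosen with the difference between the genotypes known, so that difference is given as a description with no test.

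Dorsal skin of 3 Cbl-b-/- mice and 3 WT mice was compared. The labels spell the genotype clb-b -/-, and the control is wild type. Mice of both groups were BL6, sex- and age-matched, and received 1 dose of 80 mJ/cm2 UVB, so that no group here stands for skin without irradiation. Arrays of nonirradiated skin were not analysed here. Cbl-b is an E3 ubiquitin ligase that restrains activation of lymphocytes, and the Cbl-b-/- mice lack it in every cell type, not in skin or leukocytes alone. The arrays were of the Affymetrix Mouse Gene 1.0 ST type, which give 1 log2 value per array for each transcript cluster, called a row here. The source of each array is 1 skin sample, in which fewer cells of a type and less RNA per cell cannot be told apart.

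CCR7 is a G protein-coupled receptor of naive T cells, B cells and mature dendritic cells. CCL19 and CCL21 guide these cells toward and within lymph nodes, and dendritic cells leaving the skin follow CCL21 on lymphatic vessels. CCL19 is secreted in soluble form, while the long charged tail of CCL21 holds it on the cell surface and matrix. In the mouse, CCL21 is encoded by several near-identical genes on chromosome 4, with Ccl19 beside them. Ccl21a encodes the form of lymphoid organs, with a serine at the residue that differs, and Ccl21b the form with leucine, known from lymphatic vessels of other tissues.

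The sequence before the start of these genes shows how alike the Ccl21 copies are. The RefSeq table, on build GRCm38.p6, held a window for 6 of the 9 gene names in the Ccl19, Ccl21 and Ccr7 rows. Ccr7, Ccl21c and Gm1987 had none. The 250 bases before the start of Ccl19 are shown because Ccl19 is the gene whose groups stood apart, with capitals at matches to an NF-kappaB motif (3 G, 5 bases of any kind and 2 C) and to the core of the interferon-stimulated response element (GAAA before and after 2 bases of any kind). Those before Ccl21a and Ccl21d are shown because the same array rows name both, with capitals at the base that differs. The windows lie at chr4:42756366-42756615 on the minus strand (Ccl19), chr4:42773992-42774241 on the minus strand (Ccl21a) and chr4:41903363-41903612 on the plus strand (Ccl21d), each printed 5′ to 3′.
Ccl19: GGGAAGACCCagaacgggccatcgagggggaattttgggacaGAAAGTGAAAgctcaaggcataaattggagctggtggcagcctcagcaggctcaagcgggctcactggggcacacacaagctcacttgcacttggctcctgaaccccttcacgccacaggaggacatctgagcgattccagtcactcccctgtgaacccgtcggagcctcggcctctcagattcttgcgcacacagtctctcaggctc
Ccl21a: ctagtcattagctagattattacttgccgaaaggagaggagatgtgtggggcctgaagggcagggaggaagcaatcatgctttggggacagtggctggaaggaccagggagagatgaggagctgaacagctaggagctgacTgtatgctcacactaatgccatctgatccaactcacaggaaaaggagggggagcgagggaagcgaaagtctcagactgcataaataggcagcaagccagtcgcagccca
Ccl21d: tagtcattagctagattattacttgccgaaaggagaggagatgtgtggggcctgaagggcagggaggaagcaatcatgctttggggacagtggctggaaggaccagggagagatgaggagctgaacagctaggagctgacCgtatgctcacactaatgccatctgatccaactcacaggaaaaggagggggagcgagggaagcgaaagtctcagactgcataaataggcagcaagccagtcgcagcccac

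The Ccl21a and Ccl21d windows were identical at 248 of 249 aligned bases, and the difference is T142C, counted from 1 at the 5′ end of the Ccl21a window. The windows of Gm13304 and Gm10591, which the same array rows name, matched Ccl21a at 247 of 249 bases (T142C and T144C). The window of Ccl21b matched it at 81 of 247 bases. Windows were aligned without gaps and with shifts of at most 3 bases. A start placed further off or a gap would also lower the match, so the likeness of Ccl21b to the other copies was not settled. The motifs were searched on both strands in all 32851 windows of 250 bases. The NF-kappaB motif was found in 45.8% of windows, the interferon core in 2.98% and the TATA box in 12.4%. The Ccl19 window held 1 match to the NF-kappaB motif and 1 to the interferon core, with no overlap between them, and none to the TATA box. The Ccl21a, Ccl21b, Ccl21d, Gm13304 and Gm10591 windows held no match to any of the 3. A match describes letters only.

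Cblb, which the knockout targets, stood at 8.61, 8.69 and 8.61 in the Cbl-b-/- arrays and at 9.90, 9.66 and 9.72 in the WT arrays (log2), lower in every Cbl-b-/- array as the labels say. The medians of the arrays lay between 6.30 and 6.34, and arrays correlated at 0.980 or more across rows. All 8 measured keratinocyte markers, among them Krt5, Krt14 and Krt1, had a mean above the table median of 6.32. Cbl-b-/- replicate 2 stood apart in fat and muscle genes. The mean log2 level of 7 measured adipocyte markers was 7.64 in it against 8.21 to 9.32 in the other arrays, and that of 10 skeletal muscle markers was 9.25 against 9.71 to 10.6. WT replicate 3 stood apart in hair follicle genes, with a mean log2 level of 9.34 over 14 markers against 5.50 to 7.03. Each result on Ccl19, Ccl21 and Ccr7 is therefore also given without 1 or both of these arrays.

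All rows of Ccl19 were lower in the Cbl-b-/- group, with log2 fold changes (Cbl-b-/- minus WT) from −1.64 to −1.52. The profile shared by 2 rows stood at 10.08, 7.89 and 9.76 in Cbl-b-/- replicates 1, 2 and 3. In WT replicates 1, 2 and 3 it stood at 11.05, 10.76 and 10.75. The groups did not overlap, the WT arrays lay within 0.30 of each other, and Cbl-b-/- replicate 2 was far below the other Cbl-b-/- arrays. The means were 9.24 ± 1.19 (SD, n = 3) and 10.85 ± 0.17 (SD, n = 3), which differ by −1.61 (log2 fold change, standard error 0.55), or 3.05-fold lower. The number of arrays limits the precision of this and every other value.

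The other profiles of Ccl19 repeated this pattern. The second stood at 9.99, 7.83 and 9.66 in Cbl-b-/- skin and at 10.92, 10.66 and 10.64 in WT skin, and differed by −1.58 (log2 fold change, standard error 0.54). The third stood at 9.97, 7.73 and 9.65 against 10.96, 10.66 and 10.65, with −1.64 (standard error 0.56). The fourth stood at 9.82, 7.88 and 9.50 against 10.74, 10.52 and 10.51, with −1.52 (standard error 0.48). In each, the lowest WT array lay 0.65 to 0.69 above the highest Cbl-b-/- array on the log2 scale. The profiles correlated with each other at 0.999 or more over the 6 arrays, and all of them carry the 1 symbol, so they are repeated readings of 1 gene and not independent ones.

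**Figure D1:**
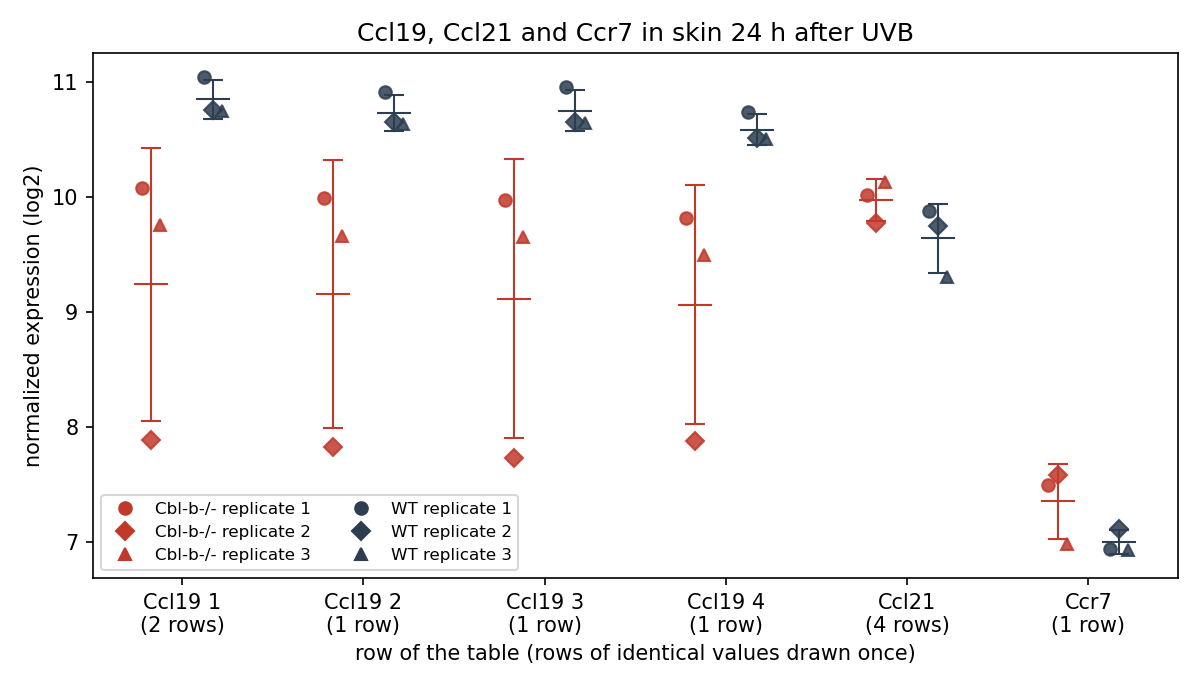
Normalized expression (log2, vertical axis) of the 6 distinct value profiles of Ccl19, Ccl21 and Ccr7 (horizontal axis) in Cbl-b-/- (red) and WT (dark blue) skin, 24 h after UVB. Each point is 1 array, with a shape for each replicate number and with the mean and SD of 3 arrays drawn as a bar and whiskers. In the Ccl19 profiles every Cbl-b-/- array lies below every WT array and Cbl-b-/- replicate 2 lies lowest at 7.73 to 7.89, while the groups overlap for Ccl21 and Ccr7.

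All 5 Ccl19 rows met the study's thresholds (an unadjusted p under 0.05 and at least a 1.5-fold difference) in limma, where 1.22% of all rows met them in either direction, 0.945% as lower and 0.276% as higher. In all 4 Ccl19 profiles every Cbl-b-/- array lay below every WT array, as it did in 4.89% of all rows. Ccl19 was chosen on this contrast, so nothing is read from these counts. With the methods' per-row test, which 0.751% of rows passed at the same thresholds, 0 of the Ccl19 rows met them. Among 19938 genes, each represented by its brightest row with 1 symbol, Ccl19 ranked 7 from the lowest log2 fold change. This rank used all arrays and the contrast on which Ccl19 was chosen, so nothing is read from it either.

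The size of the Ccl19 difference depended on 1 array. Cbl-b-/- replicate 2 lay at least 1.62 below both other Cbl-b-/- arrays in every Ccl19 profile. Without it, the log2 fold changes of the 4 profiles were −0.93, −0.91, −0.94 and −0.93, with standard errors from 0.14 to 0.15, and the 2 remaining Cbl-b-/- arrays still lay below all WT arrays. Without it and WT replicate 3 they were −0.997 to −0.960. When each of the 6 arrays was left out in turn, the log2 fold changes ran from −2.06 to −0.91. Without WT replicate 1, 0 of the Ccl19 rows met the study's thresholds, and without WT replicate 2, 1 did.

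In the whole table, 37 rows (0.104%) showed Cbl-b-/- replicate 2 at least as far below both other Cbl-b-/- arrays as the Ccl19 profiles did. Of these, 14 name Ccl19 or the pseudogenes that lie near it, as described below. The others include the fat cell genes Adipoq (an adipokine), Cidec (a lipid droplet protein) and Retn (the hormone resistin), and the muscle genes Mstn (the growth inhibitor myostatin) and Trdn (triadin, of the calcium release complex). Rows of other genes, such as Fcer2a, Skint9 and Lgi1, and rows with no symbol were also among the 37. Ccl19 thus shared its low array with genes of fat and muscle and with others. Without Cbl-b-/- replicate 2, the adipocyte mean was 9.25 to 9.32 in Cbl-b-/- and 8.21 to 8.89 in WT skin, and the skeletal muscle mean was 10.3 to 10.5 and 9.71 to 10.6. The part of these tissues in the Ccl19 difference was not tested.

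Ccl21, the other ligand, was not lower in Cbl-b-/- skin. Its 4 rows hold identical values and each names Ccl21a, Ccl21b, Ccl21c, Ccl21d, Gm1987, Gm13304 and Gm10591, so the copies cannot be told apart in these data. The profile stood at 10.02, 9.77 and 10.14 in Cbl-b-/- and at 9.88, 9.75 and 9.31 in WT skin. The groups overlapped, since Cbl-b-/- replicate 2 lay below WT replicate 1, and WT replicate 3 was lowest. The means were 9.98 ± 0.19 (SD, n = 3) and 9.65 ± 0.30 (SD, n = 3), which differ by 0.33 (log2 fold change, standard error 0.17), or 1.26-fold. Over the 6 fits with 1 array left out it lay between 0.16 (without WT replicate 3) and 0.45, and it was 0.26 without WT replicate 3 and Cbl-b-/- replicate 2. In Cbl-b-/- replicate 2, the lowest array for Ccl19, Ccl21 deviated by −0.30 from the mean of the other Cbl-b-/- arrays (log2).

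Ccr7, the receptor, was measured by 1 row. It stood at 7.50, 7.58 and 6.98 in Cbl-b-/- and at 6.94, 7.12 and 6.93 in WT skin. In 2 of the Cbl-b-/- arrays it lay above all WT arrays, and in Cbl-b-/- replicate 3 it lay among them. The means were 7.35 ± 0.33 (SD, n = 3) and 7.00 ± 0.10 (SD, n = 3), which differ by 0.36 (log2 fold change, standard error 0.17), or 1.28-fold, under the study's fold threshold. It was 0.54 without Cbl-b-/- replicate 3 and 0.24 without Cbl-b-/- replicate 2, and 0.21 without the latter and WT replicate 3. Neither Ccl21 nor Ccr7 met the study's thresholds in any of the 14 other settings. The Ccl19 and Ccr7 patterns differed in Cbl-b-/- replicate 2, which was the lowest array for Ccl19 and the highest for Ccr7.

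Genes that bind, present or relay the same ligands were described as a list of 10, all measured. Of these, 0 met the study's thresholds in limma, 0 passed an adjusted p under 0.05 (0.00281% of all rows passed) and 1, Ccrl2, had an unadjusted p under 0.05, against 6.55% of all rows. By the methods' per-row test, 0 had a p under 0.05. Log2 fold changes in this list had a median of 0.12 and a range of −0.32 to 0.42, the median over all rows being 0.020, and 8 of 10 lay above 0, as did 55.8% of all rows.

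Among the receptors of this list, Ackr4, a scavenger that removes CCL19 and CCL21 without signaling, stood at 7.87, 7.02 and 7.61 in Cbl-b-/- and at 7.81, 7.71 and 7.48 in WT skin. Its groups overlapped and its log2 fold change was −0.17 (standard error 0.22), which turned to 0.071 without Cbl-b-/- replicate 2. Ccrl2, an atypical receptor of the same family, stood at 6.54, 6.71 and 6.17 against 6.19, 5.90 and 6.07. By limma it differed by 0.42 (log2 fold change, standard error 0.16, adjusted p = 0.749), with groups that overlapped at Cbl-b-/- replicate 3. Cxcr3, a receptor of activated T cells for interferon-induced chemokines, had 0.29 as its log2 fold change (standard error 0.13).

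Pdpn, a glycoprotein of lymphatic endothelium and stroma that binds CCL21, differed by −0.32 (log2 fold change, standard error 0.22). St8sia4, the polysialyltransferase whose product on dendritic cells releases CCL21 from its inhibited form, stood at 0.17 (standard error 0.22). The G protein subunit gene Gnai2 stood at 0.16. The receptor kinase genes Grk3 and Grk6, whose products act on CCR7, stood at 0.10 and 0.011, and the arrestin genes Arrb1 and Arrb2, which act in its desensitization, at 0.11 and 0.13. In all 7 of these genes the groups overlapped, and the fold changes of St8sia4, Grk3, Grk6 and Arrb1 turned sign when 1 array was left out.

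**Figure D2:**
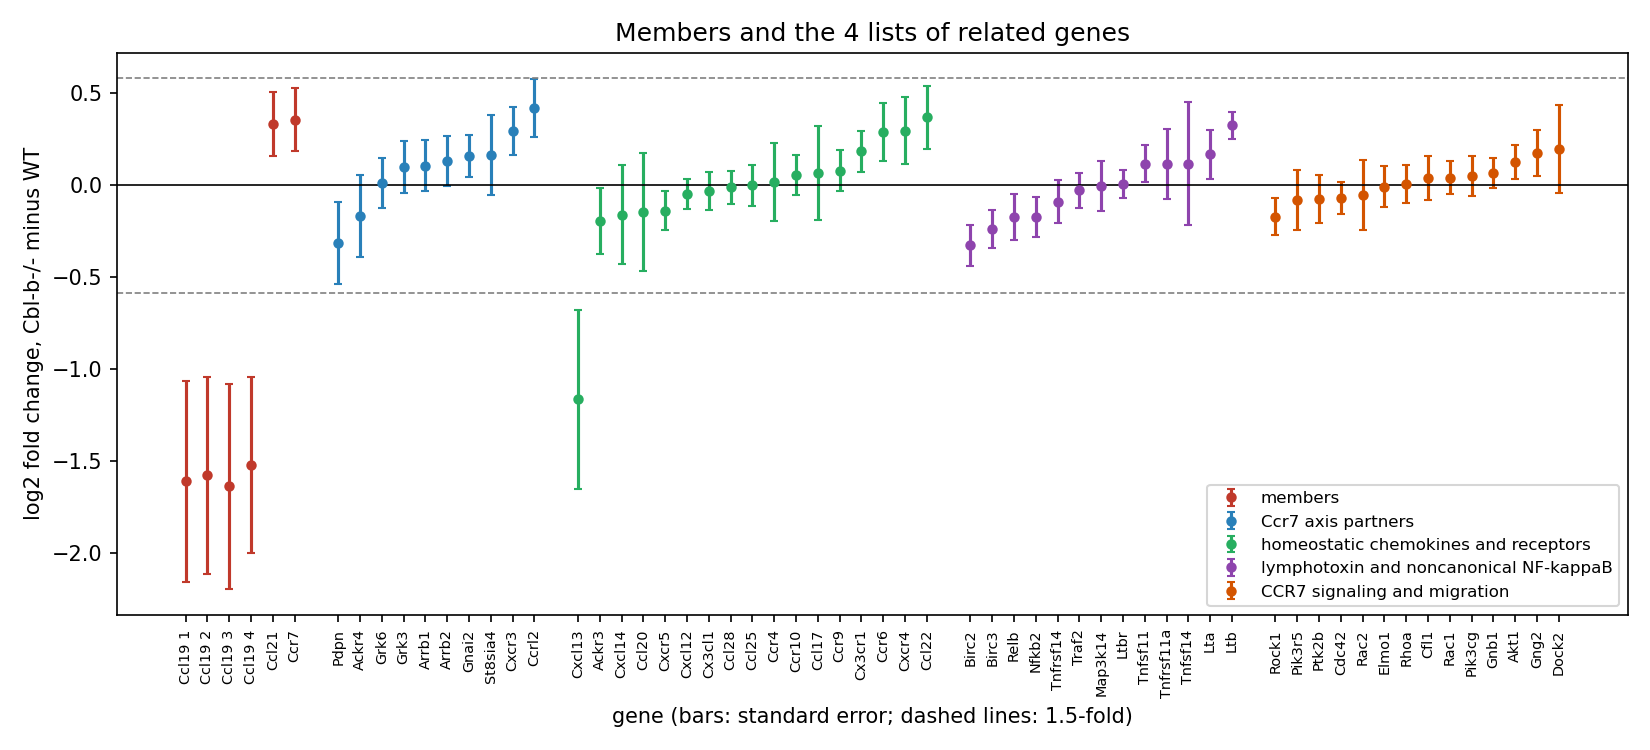
Log2 fold change (Cbl-b-/- minus WT, vertical axis) of the Ccl19, Ccl21 and Ccr7 profiles and of the measured genes of 4 related lists (horizontal axis, colours). Points are limma estimates from 3 arrays per group, bars are standard errors and dashed lines mark a 1.5-fold difference. The Ccl19 profiles (−1.64 to −1.52) and Cxcl13 (−1.17) lie below the lower dashed line and the points of all other genes lie between the lines.

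Other chemokines with largely homeostatic roles, together with their receptors, formed a list of 18, of which 17 were measured. In limma 0 met the study's thresholds, 0 passed an adjusted p under 0.05 and 0 had an unadjusted p under 0.05, as with the methods' per-row test. Their median log2 fold change was 6.7e-05, against 0.020 over all rows, with a range of −1.17 to 0.37. The lowest was Cxcl13, the chemokine that draws B cells into follicles. Cxcl13 stood at 9.58, 7.80 and 9.40 in Cbl-b-/- and at 10.57, 9.83 and 9.87 in WT skin.

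Every Cbl-b-/- array lay below every WT array for Cxcl13, as in 4.89% of all rows. Its lowest array was the same as that of Ccl19. In limma the log2 fold change was −1.17, with a standard error of 0.49, an unadjusted p of 0.0502 and an adjusted p of 0.749. It met the study's thresholds in 6 of the 14 other settings, and without Cbl-b-/- replicate 2 its log2 fold change was −0.60. Its receptor gene Cxcr5 stood at −0.14. The highest of the list was Ccl22, a ligand of CCR4 made by dendritic cells, with 0.37 (standard error 0.17) and groups that overlapped.

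Stromal cells of lymphoid organs make CCL19, CCL21 and CXCL13 under lymphotoxin and noncanonical NF-kappaB signals. Of 15 genes of that pathway 13 were measured. In limma 0 met the study's thresholds and 0 passed an adjusted p under 0.05. An unadjusted p under 0.05 was found for 2 in limma, against 6.55% of all rows, and for 2 with the methods' per-row test. The median log2 fold change was −0.0050, against 0.020 over all rows.

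Ltb, which encodes the membrane lymphotoxin subunit, stood at 5.91, 5.89 and 5.94 in Cbl-b-/- and at 5.53, 5.61 and 5.61 in WT skin. Every Cbl-b-/- array lay above every WT array, as in 8.66% of all rows, and limma gave a log2 fold change of 0.33, with a standard error of 0.07 and an adjusted p of 0.654. Birc2, a ubiquitin ligase that promotes breakdown of the kinase of this pathway, stood at 7.10, 6.96 and 7.11 against 7.58, 7.34 and 7.23, with −0.33 (standard error 0.11, adjusted p = 0.744 from limma). Every Cbl-b-/- array lay below every WT array for Birc2 and for Birc3 (log2 fold change −0.24), as in 4.89% of all rows. The receptor gene Ltbr differed by 0.0048 and Relb, which encodes a transcription factor at the end of the pathway, by −0.18.

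The signaling and migration machinery below CCR7 showed smaller differences. Of 16 genes 14 were measured, and in limma 0 met the study's thresholds, 0 passed an adjusted p under 0.05 and 0 had an unadjusted p under 0.05, as with the methods' per-row test. The log2 fold changes ran from −0.17 (Rock1, a kinase that drives contraction) to 0.20 (Dock2, an activator of Rac in leukocytes), with a median of 0.022, against 0.020 over all rows. After Dock2, Gng2 lay furthest from 0, at 0.17 (standard error 0.12). The plot of log2 fold changes by list shows the whole range.

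Ccl19 lies with the Ccl21 copies in a repeated stretch of chromosome 4, and other rows that name genes of the stretch were examined. By the RefSeq order, the stretch runs from Ccl21d to Ccl21a. It holds Gm21158, Gm3893 and Gm5859, which RefSeq lists as pseudogenes, and 9 rows in 8 profiles name these together with Gm7819, Gm10590 and 4933409K07Rik, in some rows also 4930578G10Rik. In all 8 profiles the Cbl-b-/- arrays lay below the WT arrays with no overlap, as in 4.89% of all rows. The gap could be narrow, as in a profile at 10.54 in Cbl-b-/- replicate 1 and 10.59 in WT replicate 3. Log2 fold changes of the profiles ran from −2.14 to −1.87. The largest stood at 10.51, 5.92 and 10.38 in Cbl-b-/- and at 11.41, 11.14 and 10.70 in WT skin.

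In these 8 profiles Cbl-b-/- replicate 2 was at 5.88 to 6.32, while the other arrays lay between 9.81 and 11.42. The deviation of that array from the mean of the other Cbl-b-/- arrays was −4.53 to −3.73, against −2.08 to −1.78 in the Ccl19 profiles. Without that array the log2 fold changes were −0.63 to −0.53, and with it 0 of the 8 profiles met the study's thresholds in limma, with standard errors from 0.99 to 1.20. The rows that name genes of Ccl27, a chemokine of keratinocytes also encoded in the stretch, had smaller differences of −0.10 and −0.18. The brighter of their profiles stood at 11.45, 10.56 and 11.52 in Cbl-b-/- and at 11.51, 11.31 and 11.01 in WT skin. It was low in Cbl-b-/- replicate 2 as well, with a deviation of −0.92 on the log2 scale. The row of the long noncoding RNA 4930578G10Rik alone stood at 10.16, 9.17 and 8.83 against 10.69, 10.14 and 9.86, and its groups overlapped.

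The nearest measured protein-coding genes outside the stretch showed smaller deviations in Cbl-b-/- replicate 2 than the Gm3893, Ccl19 and Ccl27 rows did. Of the 20 nearest measured protein-coding genes, 10 on each side, the median log2 fold change was 0.013 and the range −1.03 to 0.22. The deviation of Cbl-b-/- replicate 2 from the mean of the other Cbl-b-/- arrays ran from −0.78 to 0.18. Inside the stretch, the rows of Ccl21 (−0.30) and of 4930578G10Rik alone (−0.33) lay within that range. Cntfr, the receptor of ciliary neurotrophic factor, alone met the study's thresholds in limma. It stood at 9.07, 8.59 and 9.07 in Cbl-b-/- and at 9.97, 9.56 and 10.28 in WT skin, and differed by −1.03 (log2 fold change, standard error 0.22). Whether the rows of the stretch detect separate RNAs or the same one was not tested. The copy number of the stretch in the single mice was not measured, so in Cbl-b-/- replicate 2 fewer gene copies and less RNA per copy cannot be told apart for Ccl19 and the Gm3893 rows.

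**Figure D3:**
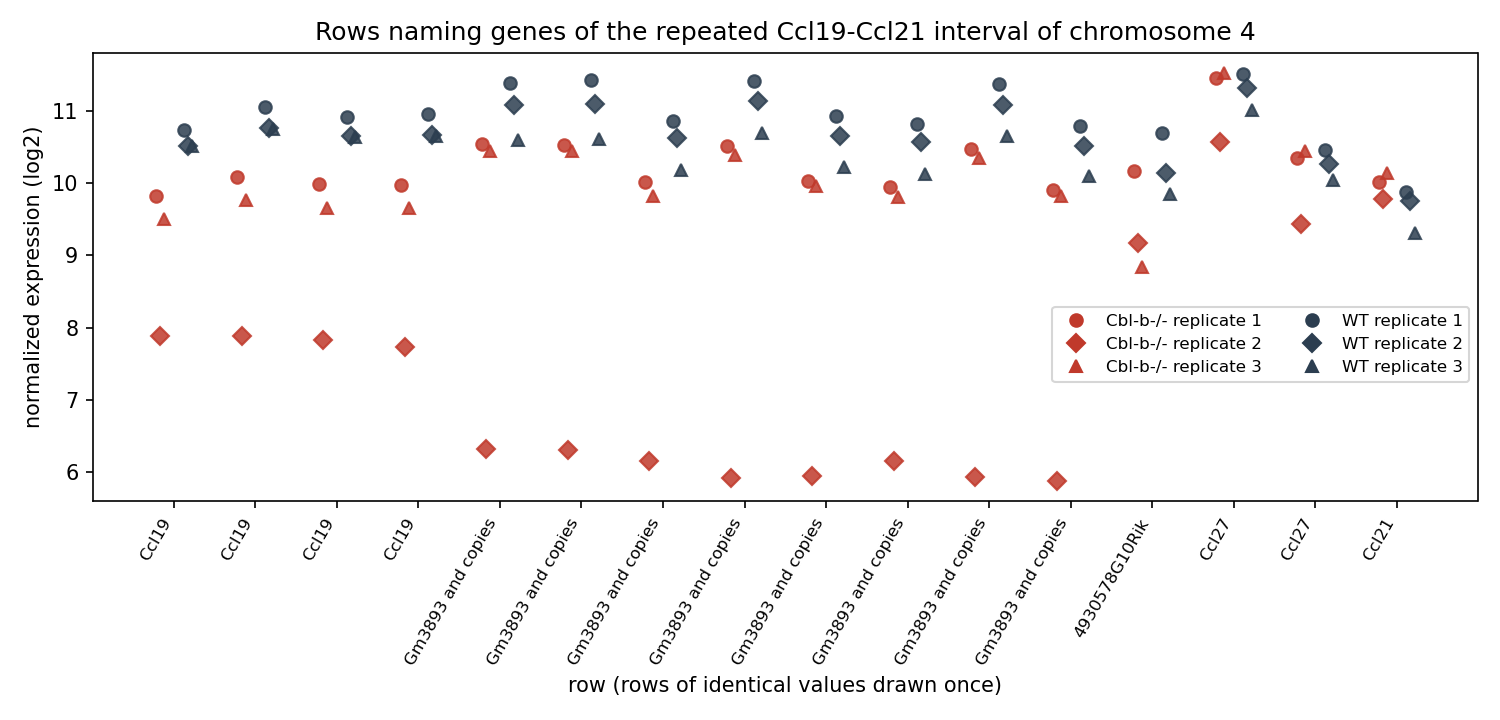
Normalized expression (log2, vertical axis) of rows that name genes of the repeated Ccl19 and Ccl21 stretch of chromosome 4 (horizontal axis, in no map order). Points are single arrays, Cbl-b-/- in red and WT in dark blue, with a shape for each replicate number. Cbl-b-/- replicate 2 lies at 5.88 to 6.32 in the Gm3893 rows and at 7.73 to 7.89 in the Ccl19 rows, and deviates by −0.30 from the mean of the other Cbl-b-/- arrays for Ccl21.

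Markers of the cells that make or follow these chemokines were examined beside the Ccl19, Ccl21 and Ccr7 values. Of 10 markers of lymphatic endothelium, Flt4 (the receptor of VEGF-C) and Prox1 (the factor that sets lymphatic identity) rose past the study's thresholds in limma, by 0.62 and 0.61 on the log2 scale (adjusted p = 0.311 and 0.570). Mmrn1 (multimerin 1) fell by 2.89 on the log2 scale (adjusted p = 0.0894 from limma), and the other 7, with Lyve1 at 0.42, did not pass. Mmrn1 stood at 3.64, 3.91 and 3.78 in Cbl-b-/- and at 7.14, 6.87 and 5.99 in WT skin. Its Cbl-b-/- arrays thus lay far below the table median of 6.32. When WT replicate 3 was left out both Flt4 and Prox1 missed the thresholds, and Prox1 missed them without Cbl-b-/- replicate 3 too. Prox1 missed them with cyclic loess (0.56) and with array weights (0.56) as well, and Flt4 with Cbl-b-/- replicate 2 and WT replicate 3 both left out (0.55). Of all rows, 0.276% met the thresholds in limma as higher and 0.945% as lower. Over the 10 markers the median log2 fold change was 0.27, with 6 above 0, as were 55.8% of all rows. The mean log2 level of the list was 7.73 in each Cbl-b-/- array and 7.74 to 7.92 in WT arrays, a difference of −0.10 that turned to 0.21 without Mmrn1, a choice made after its value was seen (8.15 to 8.18 against 7.934 to 8.001 over the other 9).

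The lists for immune cells that carry CCR7 held no gene past the study's thresholds in limma, and 0 with an adjusted p under 0.05. At an unadjusted p under 0.05 there were 0 of 11 dendritic cell, 2 of 11 T cell (Cd3d and Il7r) and 2 of 9 B cell markers (Cd79b and Cd22), and by the methods' per-row test 0, 2 and 1, against 6.55% of all rows in limma. The mean log2 level of 11 measured markers of migratory dendritic cells was 6.60 to 6.77 in Cbl-b-/- and 6.50 to 6.58 in WT skin. Of these, Fscn1, which bundles actin in mature dendritic cells, stood at 0.60 (log2 fold change) with groups that overlapped, and Cd83 at 0.37. For 11 T cell markers the mean log2 level was 5.87 to 5.92 against 5.73 to 5.78, and for 9 B cell markers 4.70 to 4.93 against 4.59 to 4.72. All 9 B cell markers had a mean below the table median, as did 7 of 11 T cell and 5 of 11 dendritic cell markers. The groups overlapped in 9 of 11 dendritic cell and 6 of 11 T cell markers, and in Ccr7. In the other 2 and 5 markers every Cbl-b-/- array lay above every WT array, as in 2 of 9 B cell markers. Over all rows this held for 8.66%. Above 0 lay 9 of 11 dendritic cell, 9 of 11 T cell and 8 of 9 B cell markers. Of all rows, 55.8% did. Those below 0 were Socs2 (−0.28) and Cd40 (−0.072) of dendritic cells and Cd3g (−0.077) and Cd3e (−0.040) of T cells. Pax5 of B cells stood at −0.075. The part of these cells in the Ccr7 values was not tested.

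Lymph node stroma and high endothelial venules were looked for by their markers. Which cells made Ccl19 was not tested. Of 8 measured markers of lymph node stroma and high endothelial venules, 5 had a mean below the table median. Glycam1, Madcam1 and Chst4 were among these 5. The mean log2 level of this list was 5.93 to 5.99 in Cbl-b-/- and 5.92 to 6.05 in WT skin. Cxcl13, also in this list, had a WT mean of 10.09 and a log2 fold change of −1.17. The other 7 genes lay above 0, so the mean joins differences in opposite directions. For 10 fibroblast markers the mean log2 level was 10.2 to 10.4 in both groups. The ranges of the groups overlapped in both lists, and 0 genes of either met the study's thresholds in limma. In limma 0 genes of either list had an unadjusted p under 0.05, and with the methods' per-row test 1 lymph node gene did. In the lists for keratinocytes, blood endothelium, hair follicle and adipocytes 0 genes met the thresholds in limma. An unadjusted p under 0.05 was found for 1, of blood endothelium. In limma 6.55% of all rows had such a p and 1.22% met the thresholds. Among macrophage markers Vsig4, a complement receptor, met them (log2 fold change 1.28), but not with Cbl-b-/- replicate 2 and WT replicate 3 both left out (1.00). The macrophage list had 5 of 10 genes above 0 and a median of 0.029. Among skeletal muscle markers Myh2, a myosin, met them (0.85), while 8 of 10 lay below 0 and the median was −0.27. Myh2 missed the thresholds in 6 of the 14 other settings, among them the methods' per-row test, the replicate block and 4 of the 6 fits with 1 array left out (without Cbl-b-/- replicates 1 and 3 and WT replicates 1 and 3).

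**Figure D4:**
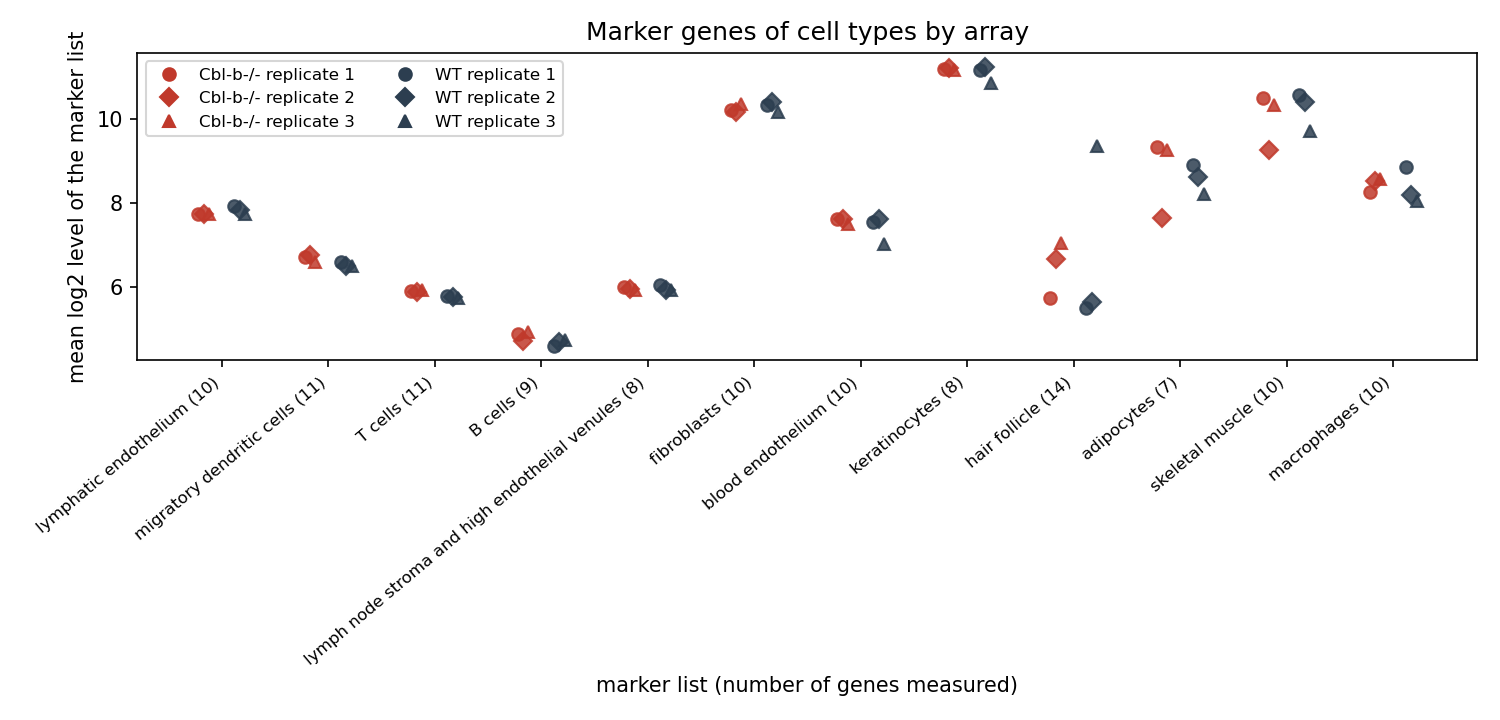
Mean log2 level (vertical axis) of the measured genes of 12 marker lists (horizontal axis, number of genes in brackets) in each array. Points are single arrays, Cbl-b-/- in red and WT in dark blue, with a shape for each replicate number. Cbl-b-/- replicate 2 lies low in adipocytes (7.64) and WT replicate 3 high in hair follicle (9.34), while lymphatic endothelium spans 7.73 to 7.92.

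The genes whose values over the 6 arrays ran most like those of each gene were listed by Pearson's r, among 1022 rows with 1 symbol, a mean at or above the table median and a range of at least 1 (log2). These are descriptions over 6 arrays of both genotypes, so genes with 1 array far from the rest can run alike through it. Nearest to Ccl19 were Naaladl2 (r = 0.99), Cxcl13 (0.98), Slc13a3 (0.93), Pcp4 (0.93) and Mc5r (0.93), which all had their lowest value in Cbl-b-/- replicate 2. Nearest to Ccl21 were Scn7a (r = 0.98), Clca2 (0.98), Adgrl4 (0.97), Meox2 (0.97) and Bnip3 (0.97), and the highest for Ccr7 were Rtf2 (r = 0.94), Nppb (0.92), Tmprss11g (0.91), Alpl (0.86) and Thbs2 (0.85). No gene stood in the list of more than 1 of the ligands and the receptor.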

How the data were processed

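Dorsal skin RNA was measured on 6 Affymetrix arrays (Mouse Gene 1.0 ST), 3 from Cbl-b-/- and 3 from WT mice, 24 h after UVB. The authors normalized the arrays with the robust multichip average (RMA), and the submitters' processing notes name Partek 6.5 and Affymetrix Expression Console. The deposited values are log2 expression, 1 per array and row, and were used without further scaling. RMA subtracts background and forces like distributions, which compresses differences of dim rows. Row symbols came from the platform annotation: 21789 rows have 1 symbol, 1621 several and 12146 none. Of all rows, 701 share every value with another row. Genes and lists were chosen with earlier results of these data known. The text names all rows of the chosen genes, all receptor partners, and the list genes past the thresholds or else the 2 furthest from 0. It also names defining markers of some lists and, for each pattern, 5 genes by likeness.

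The genotypes were compared with limma 3.58.1 (lmFit and eBayes) in R 4.3.3, tested on simulated data, with Benjamini-Hochberg adjustment over all 35556 rows. A gene's row was that with 1 symbol and the highest mean. The labels name separate samples, and the methods give them as biological replicates. With 3 arrays against 3, the smallest two-sided p of an exact permutation test is 0.10. The methods' one-way ANOVA per row was an alternative, called the per-row test. Other alternatives were cyclic loess, median centring, an intensity trend, a filter on dim rows, array weights, a replicate block and leaving out each array. The gene coordinates and sequences are RefSeq's (GRCm38.p6).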

Additional observations from a re-analysis of the deposited data

How the results depend on the processing

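In all alternatives the log2 fold changes of the 4 Ccl19 profiles stayed below 0 and those of Ccl21 and Ccr7 above 0. With cyclic loess the median difference of all rows was −0.0060, and with median centring 0.013, against 0.020. With Cbl-b-/- replicate 2 and WT replicate 3 both left out, a setting chosen after seeing the data, the lowest log2 fold change of Ccr7 was found, 0.21. Of the 10 rows of Ccl19, Ccl21 and Ccr7, 5 met the study's thresholds in limma, 0 with the methods' per-row test, and 0 to 5 when each array was left out. The count over all rows was 434 in limma, 267 with the per-row test, 176 with the filter on dim rows, 950 with both arrays left out, and 428 to 790 when each array was left out (790 without Cbl-b-/- replicate 2). At an adjusted p under 0.05 the count was 1 in limma, 2 with the per-row test, 9 with the filter, 12 with array weights, and 1 to 2 when each array was left out. Among homeostatic chemokines and receptors 0 met the thresholds in limma, and 1 (Cxcl13) did with median centring, with the intensity trend, with the replicate block and with both arrays left out. It was 0 to 1 when each array was left out.

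Log2 fold changes that turned sign were small. Without Cbl-b-/- replicate 2 they were 0.071 (Ackr4), −0.010 (Dock2), −0.10 (Grk6) and −0.028 (St8sia4). Without WT replicate 3 they were −0.043 (Arrb1) and −0.025 (Grk3), and without WT replicate 1 −0.048 (Grk6). With both arrays left out they were −0.052 (Arrb1), −0.14 (Dock2), −0.018 (Grk3), −0.063 (Grk6) and −0.18 (St8sia4). Their ranges when each array was left out were −0.35 to 0.071 (Ackr4), −0.043 to 0.20 (Arrb1), −0.010 to 0.40 (Dock2), −0.025 to 0.20 (Grk3), −0.10 to 0.14 (Grk6) and −0.028 to 0.31 (St8sia4). The cause was not tested.

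The arrays of the same replicate number deviated from their group means with correlations of 0.23, 0.092 and 0.25, so the numbers were not taken to pair the mice, although each Cbl-b-/- array correlated best with the WT array of its own number. With the replicate block 453 rows met the thresholds, 5 of them Ccl19 rows. The number of arrays and the dim rows, for which signal above background was not given, limit what small differences can show.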
